A study of Homo sapiens with 6 samples.

Results

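The ETS family of transcription factors was followed in mitotic ERRAS cells through 10 genes taken by symbol from the 63129 genes listed in the expression table: ETV1, ETV4 and ETV5 (the PEA3 group), ELK1 and ELK3 (ternary complex factors), ETS1, ETS2, ELF4, and the repressors ERF and ETV6. Each symbol had 1 row with 1 value per library, and all 10 genes were expressed and tested. ETS factors bind DNA through a shared winged helix-turn-helix domain that reads a GGAA core, and neighbouring bases and partner proteins set which genes each factor reaches. Many of them receive the signal of the Ras-ERK cascade: ERK phosphorylates ETS1, ETS2, the ternary complex factors and ERF, and it raises transcription of the PEA3 group by relieving the repressor CIC. In fibroblasts ternary complex factors sit with SRF on early-response genes, whereas ETS1, ETS2 and the PEA3 group are known for matrix protease genes.

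The study asked which changes of expression accompany the failed mitoses of fibroblasts with oncogenic Ras. ERRAS cells are IMR90 primary human lung fibroblasts, an established cell strain, transduced by retrovirus with H-RasV12 fused to the ligand-binding domain of the estrogen receptor, so that tamoxifen turns the oncogene on. Both groups carried this construct and both were arrested in mitosis with 1 μM DME, an inhibitor of the Eg5 motor, before detached cells were collected. Control mitotic cells (uninduced, 3 libraries) received no inducer, and Ras-induced mitotic cells (3 libraries) were induced for 4 days, with 100 nM tamoxifen according to the sample labels, while the methods of the study name 4-hydroxytamoxifen and give another concentration. Drug and oncogene cannot be told apart in this design. The table names its columns by group and a number from 1 to 3, and libraries are named here in the same way.

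The libraries differed little in depth. Absolute depth is unknown because FPKM (fragments per kilobase of transcript, scaled to the mapped fragments of the library) holds no counts, but the steps between low values put the libraries between 0.850 and 1.17 of the depth of control library 1. HRAS, whose reads can come from the gene or from the construct, measured 1174, 1176 and 1140 FPKM in control and 1439, 1847 and 1473 FPKM in Ras-induced libraries. Of 10 fibroblast markers all were detected, and 4 fell and none rose by the test described in the next paragraph, beside 5.67% of all tested genes lower, and their summed level was 6259 to 7334 FPKM in control and 4384 to 5950 FPKM in Ras-induced libraries. Of 10 mitotic genes 6 fell and none rose, beside the same 5.67%, with sums of 2009 to 2090 and 1600 to 1764 FPKM. Of 8 blood cell markers all stayed under 0.5 FPKM in every library, including PTPRC and SPI1. Of 8 endothelial markers 7 did so, ERG being at 0 throughout, while TEK had 14.4 to 16.4 FPKM in control and 4.72 to 5.29 FPKM in Ras-induced libraries. Of 8 epithelial markers 4 stayed under 0.5 FPKM in every library, but KRT5 had 7.77 to 18.7 FPKM in control and 11.1 to 11.9 FPKM in Ras-induced libraries, and none of the 3 tested markers was altered. EPCAM, too low to be tested, had 0.880 to 1.80 FPKM in control and 0.167 to 0.424 FPKM in Ras-induced libraries. The part of these markers in the differences given next was not tested, and in bulk RNA fewer cells of a type and less RNA per cell cannot be told apart. For mitotic cells, the study reports by microscopic scoring that they made up the large majority of the collected cells in both groups.

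After Ras induction ETV1, ELK1 and ELK3 rose, and no member fell past the threshold. Mean FPKM rose 2.20-fold for ETV1, 1.62-fold for ELK1 and 1.29-fold for ELK3. Genes are called altered at an adjusted p at or under 0.05 (limma on log2(FPKM + 1), Benjamini-Hochberg over the 13993 genes averaging 1 FPKM or more), and all fold changes below are on that log2 scale, which understates the change of low genes. Of all tested genes 16.7% were altered, 11.0% higher and 5.67% lower. The split by direction depended on scaling, as 66.1% of altered genes were higher in the deposited values, 48.5% after quantile normalization and 45.5% after upper-quartile scaling. After quantile normalization 15.4% of genes were altered, 7.46% higher and 7.93% lower, and the members altered were ETV1 and ELK1, higher, and ETS1 and ELF4, lower. After upper-quartile scaling 14.5% were altered, 6.58% higher and 7.87% lower, and the members were ETV1 and ELK1, higher, and ETS1, lower. With 1 library left out 998 to 1956 genes were altered, and ETV1 was the only member altered without Ras-induced library 1 or 3. The median log2 fold change of the 10 members was 0.21, beside 0.10 for all tested genes. Control and Ras-induced values did not overlap in 5 of the 10 members, 3 higher (ETV1, ELK1, ELK3) and 2 lower (ETS1, ELF4), whereas 39.9% of all tested genes did not overlap, 27.1% higher and 12.8% lower, so these counts were near the background.

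In the PEA3 group, ETV1 rose while ETV4 and ETV5 did not pass the test. ETV1 (ENSG00000006468, GRCh37 chromosome 7 from 13930854 to 14031050, minus strand) measured 18.5, 19.5 and 14.9 FPKM in control libraries 1 to 3 and 45.5, 31.4 and 39.4 FPKM in Ras-induced libraries 1 to 3. The lowest Ras-induced library stood well above the highest control. The means were 17.6 ± 2.41 FPKM (SD, n = 3) and 38.8 ± 7.06 FPKM (SD, n = 3). The log2 fold change was 1.09 (standard error 0.16, 95% interval 0.71 to 1.47, adjusted p = 0.00879 from limma), larger than that of 96.8% of all tested genes. ETV1 was altered under each of the 15 alternative fits, including each one without a library, with an adjusted p between 0.00484 and 0.0366.

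ETV4 (ENSG00000175832, chromosome 17 from 41605212 to 41656988, minus strand), an activator with known targets among matrix protease genes, measured 46.4, 37.7 and 30.8 FPKM in control and 50.0, 50.7 and 42.5 FPKM in Ras-induced libraries. The groups overlapped, because control library 1 lay above Ras-induced library 3. The log2 fold change was 0.32 (95% interval -0.05 to 0.70, adjusted p = 0.2001 from limma). ETV5 (ENSG00000244405, chromosome 3 from 185764103 to 185828107, minus strand), its close paralog, measured 42.8, 32.4 and 27.6 FPKM in control and 40.5, 37.6 and 37.5 FPKM in Ras-induced libraries. Here the highest value of all was a control, and the log2 fold change was 0.19 (95% interval -0.19 to 0.56, adjusted p = 0.438 from limma). In the later annotation ETV4 shares 68 exon bases with DHX8 on the other strand, which had 20.4 to 24.95 FPKM, and ETV5 shares 164 with DGKG on its own strand, which had 0.698 to 0.893 FPKM in control and 2.15 to 3.58 FPKM in Ras-induced libraries. The intervals of ETV4 and ETV5 reach up to 0.70 and 0.56.

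Within single libraries, where no scaling between libraries enters, the ratio of ETV1 to ETV4 was 0.398, 0.516 and 0.482 in control and 0.911, 0.620 and 0.926 in Ras-induced libraries. The ratio of ETV1 to ETV5 moved from 0.431, 0.601 and 0.539 to 1.12, 0.836 and 1.05. Both ratios were higher in each Ras-induced library than in any control. The ratio of ETV4 to ETV5 overlapped between the groups, with means of 1.12 ± 0.0400 (SD, n = 3) and 1.24 ± 0.109 (SD, n = 3). These ratios were chosen after the values were seen and carry no test.

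Both ternary complex factors among the members rose. ELK1 (ENSG00000126767, chromosome X from 47494920 to 47510003, minus strand), an ERK-activated partner of SRF, measured 29.9, 31.9 and 21.3 FPKM in control and 46.6, 46.4 and 41.6 FPKM in Ras-induced libraries. The lowest Ras-induced value was above the highest control, and control library 3 was the lowest of all. The means were 27.7 ± 5.63 FPKM (SD, n = 3) and 44.9 ± 2.81 FPKM (SD, n = 3), and the log2 fold change was 0.69 (standard error 0.15, 95% interval 0.32 to 1.06, adjusted p = 0.0294 from limma). The call was lost without control library 1 (adjusted p = 0.0602) and without Ras-induced library 1, 2 or 3 (adjusted p = 0.0879, 0.0797 and 0.0674), while the log2 fold change stayed between 0.52 and 0.80 over all fits. The processed copies ELK1P1, ELK2AP and ELK2BP reached at most 0.101 FPKM in any library.

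ELK3 (ENSG00000111145, chromosome 12 from 96588153 to 96663602, plus strand), which represses SRF targets until Ras signalling turns it into an activator, measured 63.5, 57.3 and 60.2 FPKM in control and 76.5, 76.1 and 80.9 FPKM in Ras-induced libraries. Both groups were tight and lay apart. The means were 60.3 ± 3.11 FPKM (SD, n = 3) and 77.9 ± 2.66 FPKM (SD, n = 3), and the log2 fold change was 0.36 (standard error 0.07, 95% interval 0.19 to 0.54, adjusted p = 0.0217 from limma). The call did not survive another scaling: the adjusted p was 0.0509 after quantile normalization, where the log2 fold change was 0.28, and 0.0669 after upper-quartile scaling, where it was 0.25. It was also lost without control library 2 (adjusted p = 0.0826) and without Ras-induced library 1 or 3 (adjusted p = 0.0614 and 0.0876). A long noncoding RNA on the other strand, RP11-394J1.2, shares 209 of the 4644 exon bases of ELK3 in the later annotation and had 8.49 to 13.3 FPKM over the 6 libraries, and the library kit named in the labels does not mark strand.

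The upstream sequences of the genes that rose are given next, with their ETS cores. For each, the 250 bases before the most upstream start listed by RefSeq (build GRCh38.p14) are printed 5′ to 3′ on the strand of the gene, with the ETS core GGAA, or TTCC where it lies on the other strand, in capitals.
ETV1, chr7:13991426-13991675, minus strand: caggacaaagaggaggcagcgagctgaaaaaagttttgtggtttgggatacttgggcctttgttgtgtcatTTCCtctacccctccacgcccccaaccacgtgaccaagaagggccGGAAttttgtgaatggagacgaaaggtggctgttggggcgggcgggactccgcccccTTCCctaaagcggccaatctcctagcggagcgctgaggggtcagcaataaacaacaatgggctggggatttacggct
ELK1, chrX:47650605-47650854, minus strand: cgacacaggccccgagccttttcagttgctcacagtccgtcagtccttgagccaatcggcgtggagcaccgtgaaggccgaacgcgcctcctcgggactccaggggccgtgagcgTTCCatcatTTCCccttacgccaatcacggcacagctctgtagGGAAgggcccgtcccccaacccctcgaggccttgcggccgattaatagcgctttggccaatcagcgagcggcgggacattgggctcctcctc
ELK3, chr12:96194125-96194374, plus strand: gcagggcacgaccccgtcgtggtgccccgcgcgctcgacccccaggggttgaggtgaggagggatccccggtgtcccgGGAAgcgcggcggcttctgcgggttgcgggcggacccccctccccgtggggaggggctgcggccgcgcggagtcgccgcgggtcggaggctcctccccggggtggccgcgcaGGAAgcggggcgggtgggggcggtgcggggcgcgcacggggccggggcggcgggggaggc
The core occurred 3 times before ETV1, 3 times before ELK1 and 2 times before ELK3, beside a median of 3 over 27305 promoter windows, of which 92.8% hold at least 1. Their GC content ranged from 56.0% in ETV1 over 63.6% in ELK1 to 82.0% in ELK3. Windows of 7 of the 10 members were searched, and those of ETV4, ETV5 and ETS1 were not analysed here. Among searched members that did not rise, the core occurred 4 times before ETV6, 3 times each before ETS2 and ELF4, and 1 time before ERF. None of the 7 windows held the longer ETS site CCGGAAGT, which contains the core and occurs in 3.64% of windows, the AP-1 site TGANTCA, in 6.57%, or a CArG box, the site of SRF, in 1.15%, searched on both strands. The data do not say which start was used.

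ETS1 and ETS2, the ERK-responsive founders of the family, did not rise. ETS1 (ENSG00000134954, chromosome 11 from 128328656 to 128457453, minus strand) measured 90.2, 73.7 and 61.1 FPKM in control and 56.3, 50.5 and 47.9 FPKM in Ras-induced libraries. Every Ras-induced value was under every control value, by a margin smaller than the spread of the controls. The means were 74.98 ± 14.6 FPKM (SD, n = 3) and 51.6 ± 4.27 FPKM (SD, n = 3), and the log2 fold change was -0.52 (standard error 0.15, 95% interval -0.87 to -0.16), missing the threshold at an adjusted p of 0.0591 from limma. ETS1 passed after quantile normalization (adjusted p = 0.0294), after upper-quartile scaling (adjusted p = 0.0279) and without control library 3 (adjusted p = 0.0245). It also passed after TPM scaling, which sets each library to the same sum (adjusted p = 0.0444). The adjusted p was 0.0459 with a mean of at least 5 FPKM and 0.0285 with the column number as a block. It missed the threshold in the other fits. The log2 fold change was negative under all fits, from -0.65 to -0.38. ETS2 (ENSG00000157557, chromosome 21 from 40177107 to 40196879, plus strand) measured 23.9, 24.3 and 20.6 FPKM in control and 23.7, 21.6 and 17.9 FPKM in Ras-induced libraries. These groups overlapped, and the log2 fold change was -0.12 (95% interval -0.42 to 0.18, adjusted p = 0.531 from limma).

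ELF4 (ENSG00000102034, chromosome X from 129197930 to 129244691, minus strand), known as a regulator of quiescence in blood stem cells and T cells, measured 10.7, 9.34 and 7.99 FPKM in control and 7.94, 6.27 and 5.89 FPKM in Ras-induced libraries. The groups were apart, but only just, between control library 3 and Ras-induced library 1. The log2 fold change was -0.42 (standard error 0.15, 95% interval -0.78 to -0.07, adjusted p = 0.0973 from limma). The adjusted p was 0.0442 after quantile normalization and 0.0468 with the column number as a block, and it missed the threshold in the other fits.

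Neither repressor was altered. ERF (ENSG00000105722, chromosome 19 from 42751721 to 42759280, minus strand), which ERK phosphorylation drives out of the nucleus, measured 46.9, 42.4 and 35.8 FPKM in control and 51.1, 50.3 and 45.8 FPKM in Ras-induced libraries. Only control library 1 reached into the range of the Ras-induced libraries. Its log2 fold change was 0.24 (95% interval -0.03 to 0.51, adjusted p = 0.197 from limma). ETV6 (ENSG00000139083, chromosome 12 from 11802608 to 12048311, plus strand), a repressor that forms polymers, was the member of lowest level, with 3.69, 3.58 and 4.08 FPKM in control and 4.51, 4.77 and 3.47 FPKM in Ras-induced libraries. Ras-induced library 3 was the lowest of all 6, and the log2 fold change was 0.13 (95% interval -0.21 to 0.46, adjusted p = 0.564 from limma).

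**Figure D1:**
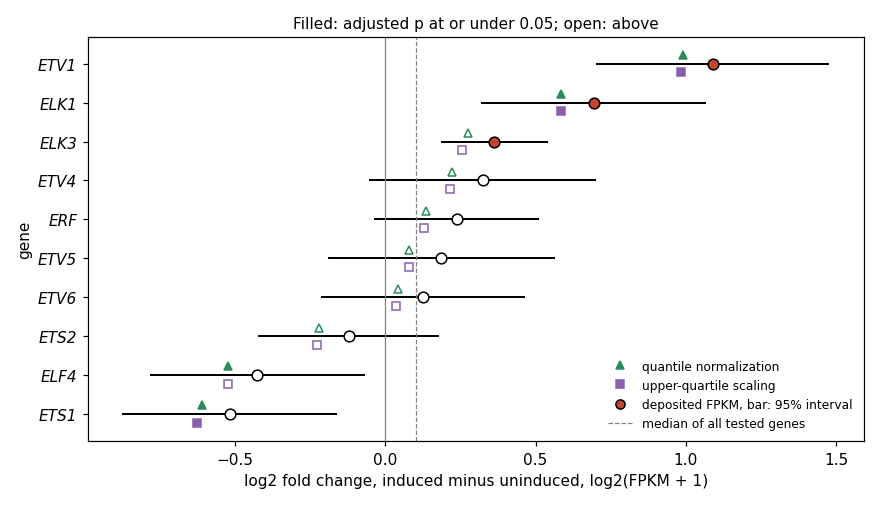
Log2 fold change of each member (Ras-induced minus control, log2(FPKM + 1)) in the deposited values (circles, with the 95% interval as a bar), after quantile normalization (triangles) and after upper-quartile scaling (squares), filled where the adjusted p was at or under 0.05. ETV1 and ELK1 are filled in all 3, ELK3 only in the deposited values, ETS1 after both scalings and ELF4 after quantile normalization. The dashed line is the median of all tested genes, 0.10.

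In an exact permutation test over the 6 libraries (two-sided, on log2(FPKM + 1)), p was 0.1 for ETV1, ELK1, ELK3, ETS1 and ELF4, the smallest that 3 libraries against 3 allow. It was 0.2 for ETV4 and ERF, 0.4 for ETV5 and ETV6, and 0.5 for ETS2.

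The order of levels among the members changed at the top. FPKM is scaled per length, so levels can be set side by side. In control cells ETS1 led in all 3 libraries, followed by ELK3, although their ranges over libraries overlapped. ELK3 was above ERF without overlap, and the neighbours ERF, ETV4, ETV5, ELK1 and ETS2 overlapped each with the next. ETV1 was eighth of the 10, under ETS2 without overlap, and ELF4 and ETV6 came last, both apart from the gene before. In Ras-induced cells ELK3 led in all 3 libraries, without overlap with ETS1, while ETS1, ERF, ETV4, ELK1, ETV1 and ETV5 overlapped each with the next. ETS2, ELF4 and ETV6 were lowest here, each apart from the gene before, so ETV1 and ETS2 had changed order. The ratio of ETS1 to ELK3 was 1.42, 1.29 and 1.01 in control libraries and 0.736, 0.664 and 0.592 in Ras-induced libraries, and a factor per library cannot move this ratio. The ratio of ELK1 to ETS1 was 0.332, 0.433 and 0.349 in control and 0.828, 0.918 and 0.868 in Ras-induced libraries. These pairs were likewise chosen after the values were seen, and no test is attached.

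The family has 28 genes, and the 10 members held most of its transcripts, 84.5% ± 0.902 (SD, n = 3) of the summed FPKM in control and 85.4% ± 1.498 (SD, n = 3) in Ras-induced cells. The summed FPKM of all 28 was 442, 391 and 341 in control and 479, 432 and 427 in Ras-induced libraries, so the groups overlapped. Shares of this sum do not depend on the scaling of a library. The share of ETS1 was 20.4%, 18.8% and 17.9% in control and 11.7%, 11.7% and 11.2% in Ras-induced libraries. The share of ETV1 was 4.17%, 4.98% and 4.37% in control and 9.50%, 7.27% and 9.22% in Ras-induced libraries. Each of these shares was separate between the groups, that of ETS1 lower and that of ETV1 higher after induction. The shares of ELK1 (higher), ETS2 and ELF4 (both lower) were separate too, although the FPKM of ETS2 itself overlapped between the groups (log2 fold change -0.12). The share of ELK3 overlapped, at 14.4%, 14.6% and 17.7% in control and 15.97%, 17.6% and 18.95% in Ras-induced libraries, as did those of ETV4, ETV5, ETV6 and ERF. Shares of the same sum are linked, so that a change of 1 gene moves the others. Of all tested genes 39.9% did not overlap between the groups in FPKM, so separate shares are common too and carry no test.

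By subfamily, ETS1 and ETS2 together held 24.9% ± 0.910 (SD, n = 3) of family transcripts in control and 16.3% ± 0.732 (SD, n = 3) in Ras-induced cells. The PEA3 group held 22.9% ± 1.42 (SD, n = 3) and 28.0% ± 0.326 (SD, n = 3), and the ternary complex factors, ELK4 included, 23.9% ± 1.46 (SD, n = 3) and 28.6% ± 1.63 (SD, n = 3). Most of the shift in the first 2 subfamilies lay in 1 gene each. Mean shares in control and Ras-induced cells were 19.1% and 11.6% for ETS1 but 5.89% and 4.72% for ETS2. They were 4.51% and 8.66% for ETV1, 9.73% and 10.7% for ETV4, and 8.69% and 8.65% for ETV5. In all 3 subfamilies every Ras-induced library lay on the same side of every control library. The same held for the rarer ERG group, in which ERG and FEV were listed at 0 and FLI1 made up the sum, at 2.68% ± 0.111 (SD, n = 3) and 2.36% ± 0.128 (SD, n = 3), and narrowly for the ERF group, at 11.9% ± 0.167 (SD, n = 3) and 12.4% ± 0.393 (SD, n = 3). The summed FPKM of the ERG group itself overlapped, at 10.5 ± 1.58 (SD, n = 3) and 10.6 ± 1.27 (SD, n = 3). The family sum, with means of 391 FPKM in control and 446 FPKM in Ras-induced cells, overlapped too. What lowered the share of the ERG group was not tested. The ELF group (ELF1, ELF2 and ELF4) overlapped between groups, at 9.003% ± 0.235 (SD, n = 3) and 7.85% ± 0.909 (SD, n = 3), as did GABPA alone, at 3.65% ± 0.586 (SD, n = 3) and 3.40% ± 0.537 (SD, n = 3). Subfamily shares are linked in the same way, and 39.9% of all tested genes did not overlap between the groups in FPKM. No test was run on these sums and shares, since the members were chosen with results known.

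**Figure D2:**
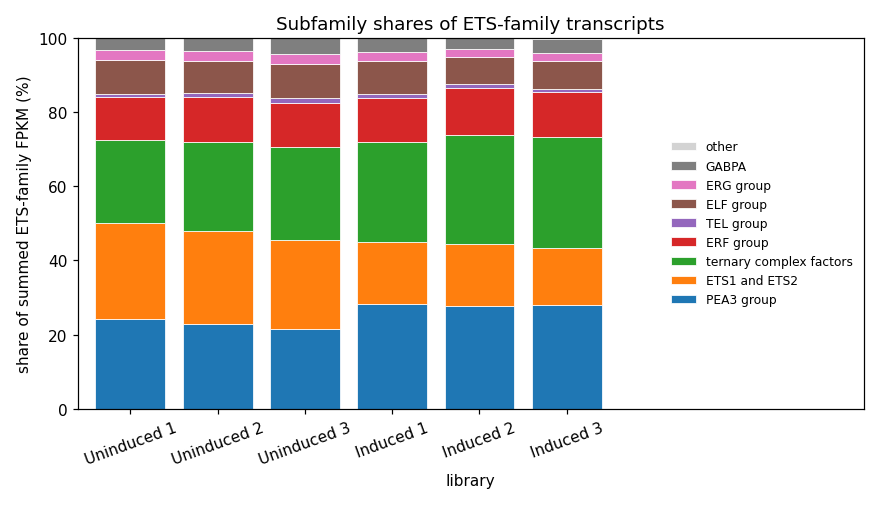
Share of each ETS subfamily (%) in the summed FPKM of the 28 family genes, as 1 stacked bar for each library, with the rarest subfamilies pooled as other. The segment of ETS1 and ETS2 is smaller in all 3 Ras-induced bars than in any control bar, and the segments of the PEA3 group and of the ternary complex factors are larger.

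Of the 18 other ETS-family genes, 6 had a mean of at least 1 FPKM and none was altered (limma, with 0 at an unadjusted p under 0.05 and 0 in every alternative fit), beside 16.7% of all tested genes, a share at which 0 of 6 does not stand apart. These 6 were FLI1, ETV3, GABPA, ELK4, ELF1 and ELF2, with log2 fold changes from -0.27 to 0.36. The lowest adjusted p was 0.156, that of ETV3, a close relative of ERF. ERG, FEV, ETV7, ELF5, SPI1 and SPIC were listed at 0 in every library.

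Among 17 genes for regulators and partners of ETS factors, 16 were tested (DET1 had more than 6 values in its row) and none was altered in the deposited values (limma, with 3 at an unadjusted p under 0.05), beside 16.7% of all tested genes. Their log2 fold changes ranged from -0.41 to 0.35, with a median of -0.10. CIC, the repressor of the PEA3 genes, measured 31.6, 29.5 and 26.7 FPKM in control and 28.0, 21.5 and 21.8 FPKM in Ras-induced libraries, which overlapped (log2 fold change -0.30, adjusted p = 0.154 from limma). SRF, the partner of ELK1 and ELK3, measured 48.4, 48.6 and 36.9 FPKM in control and 44.5, 41.7 and 38.5 FPKM in Ras-induced libraries (log2 fold change -0.09, adjusted p = 0.650 from limma). After quantile normalization 2 of the 16 were altered, ATXN1L, a cofactor that stabilizes CIC, at -0.50 (adjusted p = 0.0341), and GABPB1, the partner subunit of GABPA, at -0.39 (adjusted p = 0.0402), a count near the background of 15.4% of all tested genes altered and 7.93% lower under that scaling. CIC, SRF, ATXN1L and GABPB1 were chosen for mention after their values were seen.

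Of 16 genes described as targets of ETS factors, 15 were tested, 11 rose and none fell, beside 11.0% higher among all tested genes. Their median log2 fold change was 0.89. Most of these genes also answer to other factors downstream of ERK, and the list was drawn up with results of these data known. The count was 8 to 10 when a library was left out and 7 when the log2 change also had to reach 1 (3.92% of all tested genes did so). DUSP6, a phosphatase that inactivates ERK, measured 3.31, 1.92 and 2.23 FPKM in control and 39.8, 21.2 and 37.2 FPKM in Ras-induced libraries (log2 fold change 3.24, standard error 0.26, adjusted p = 0.00198 from limma). MCL1, the anti-apoptotic gene whose promoter ELK1 is known to bind, measured 27.4, 24.5 and 23.9 FPKM in control and 64.8, 57.6 and 64.9 FPKM in Ras-induced libraries (log2 fold change 1.27, standard error 0.09, adjusted p = 0.00148 from limma). Both genes were well apart between the groups.

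The matrix protease gene MMP1, on whose promoter ETS and AP-1 sites lie together, rose by 2.94 on the log2 scale (standard error 0.11, adjusted p = 0.00012 from limma). The early-response genes EGR1, EGR3 and JUNB rose by 2.00, 1.99 and 1.40, from control means of 4.25, 0.417 and 1.27 FPKM. EGR3 was under 1 FPKM in every control library and was tested only through its Ras-induced values of 3.33 to 6.39 FPKM, and with a pseudocount of 0.1 its log2 fold change was 3.18. JUNB lost its call without control library 1 (adjusted p = 0.1004) or 2 (adjusted p = 0.103) and without Ras-induced library 1 (adjusted p = 0.0814) or 3 (adjusted p = 0.0923). The targets that did not pass were IER2, MMP3, PLAU and CCND1, at 0.53, 0.56, 0.46 and -0.07. EGR2, with at most 0.847 FPKM, was too low to be tested.

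**Figure D3:**
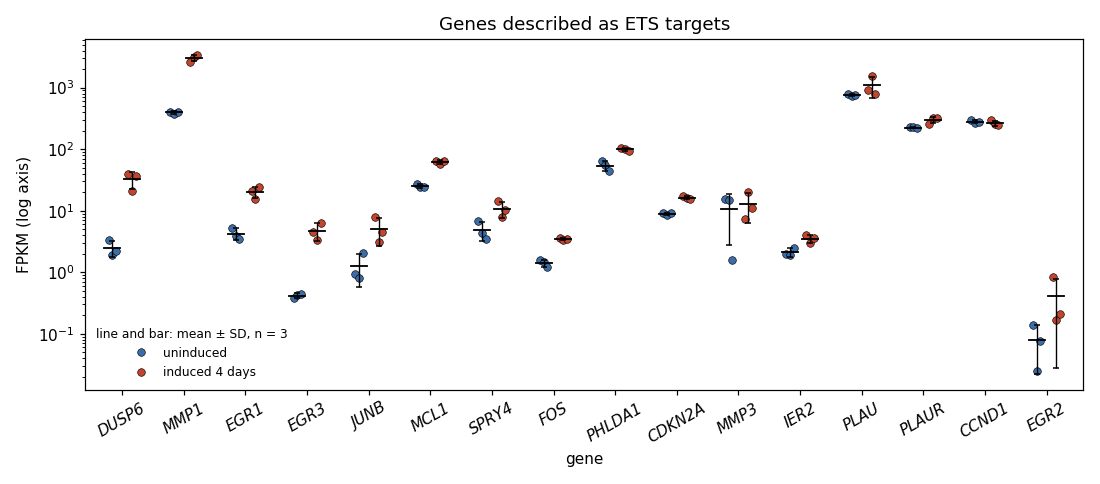
FPKM (log axis) of the 16 genes described as ETS targets in each control (blue) and Ras-induced (red) library, ordered by log2 fold change with the untested EGR2 last, with lines and bars for mean ± SD (n = 3). For DUSP6, MMP1 and EGR1 the Ras-induced points lie far above the controls, while those of MMP3 and CCND1 overlap with them.

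The genes most like ETV1 over the 6 libraries were PFKFB4, C20orf112, RAB3A, HIVEP3 and XXbac-B33L19.4, by the smallest root mean square difference of log2(FPKM + 1) after the control mean of each gene was subtracted. The differences were 0.101, 0.107, 0.114, 0.123 and 0.129, against a median of 0.748 over all tested genes. RAB3A and XXbac-B33L19.4 averaged 0.562 and 0.434 FPKM in control and passed the filter only through the Ras-induced libraries, and their mean FPKM was 4.54-fold and 4.58-fold higher there, beside 2.20-fold for ETV1, and the likeness is that of log2(FPKM + 1), not of fold in FPKM. PFKFB4, an enzyme that sets the level of fructose 2,6-bisphosphate, measured 4.10, 4.44 and 4.07 FPKM in control and 11.8, 8.64 and 9.95 FPKM in Ras-induced libraries, with Ras-induced library 2 the lowest of its group as for ETV1. Among the members ELK1 was nearest to ETV1, at 0.330 and rank 392 of the tested genes, and ETS1 was farthest, at 1.15.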

How the data were processed

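Poly(A) RNA of mitotic cells was sequenced as paired-end reads. The authors trimmed reads with Trim Galore 0.3.0 per the labels, aligned them to hg19 with TopHat2 using Ensembl build 73 junctions, and calculated the deposited FPKM per gene and library with Cufflinks. No scaling between libraries is stated in the sources used here. The deposited cuffdiff comparison holds group values, fold changes and p-values and was not used, nor were 18 unnamed columns or the 120 genes with values in them.

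From the FPKM, log2(FPKM + 1) was tested for the 13993 genes averaging 1 FPKM or more, with limma 3.58.1 in R 4.3.3 (two-sided moderated test, spread allowed to follow the mean). The method was checked on simulated data with 50 genes per size of change. It called 11 at a true log2 change of 0.5, 36 at 1, 48 at 2 and 38 at -1. Most changes of 0.5 were thus missed, and a gene not called altered may have changed by that much. Python 3.11.15 with pandas 2.3.3, numpy 2.4.6 and matplotlib 3.10.9 made tables and figures. Duplicate symbols were read from the row of highest mean. Positions are from GENCODE 44 lifted to GRCh37, the build of hg19, matched by Ensembl identifier, and promoters from RefSeq on GRCh38.p14.

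Columns give the group but not the sample, so libraries were replicates of their group, and the study states independent repeats. The members and lists were chosen with earlier results of these data known. Named were all 10 members, up to 6 altered genes of each further list by size of change, and the 5 genes most like the member of largest change. Alternatives were a pseudocount of 0.1, means of at least 0.1 or 5 FPKM or no filter, quantile, upper-quartile and TPM scaling, no trend, the column number as a block, a log2 fold change of at least 1, and each library left out.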

Additional observations from a re-analysis of the deposited data

How the results depend on the processing

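No member changed direction under any of the 15 alternative fits. ETV1 was altered in all of them. ELK1 was not altered in 5, ELK3 not in 6, while ETS1 passed in 6 and ELF4 in 2, and no alternative moved the call of ETV4, ETV5, ETV6, ETS2 or ERF. ETV6 could not be tested with a mean of at least 5 FPKM. The number of members altered, 3 in the deposited values, ranged from 1 to 4 when a library was left out (higher 1 to 3, lower 0 to 1) and was 1, higher, with a log2 fold change of at least 1. Members lower numbered 2 after quantile normalization, and 1 each after upper-quartile scaling, after TPM scaling and with a mean of at least 5 FPKM. Regulators and partners altered numbered 2 after quantile and after upper-quartile scaling and 1 after TPM scaling. Described targets altered numbered 7 with a log2 fold change of at least 1 and 8 to 10 with a library left out, while other ETS genes altered stayed at 0 to 0 there, as did regulators. Of all tested genes 2336 were altered, 1543 higher and 793 lower. Without a library these were 998 to 1956, 612 to 1208 and 371 to 748. Without a filter 1518 were altered and 960 higher, with a log2 fold change of at least 1 there were 548, 311 higher and 237 lower, and 921 were higher after upper-quartile and 1024 after TPM scaling. The stricter call lowers a count by construction, and for the other settings the cause was not tested.

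With the column number as a replicate block 5 members were altered, 3 higher and 2 lower, the latter being ETS1 (adjusted p = 0.0285) and ELF4 (adjusted p = 0.0468), beside 16.5% of all tested genes altered in that fit, 10.5% higher and 6.03% lower. The numbers were not shown to pair the libraries. Deviations from the group means correlated across genes at -0.003, 0.043 and 0.048 for equal numbers, and from -0.068 to 0.031 for unequal numbers. Control libraries 2 and 3 correlated most with the Ras-induced library of the same number, but control library 1 correlated most with Ras-induced library 2 (0.031). All these correlations were small, and pairing was not tested. Absolute depth is unknown.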
